A study of Pinus pinaster with 24 samples.

Results

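The 150 transcripts described here were those that stood highest in the developing cortex of the maritime pine (Pinus pinaster) root tip relative to every other sampled area. They were taken from the 51211 transcripts of the deposited table by their mean level over the 6 libraries of each area. Levels are in the authors' CPM, a scaled count of reads. A transcript had to average at least 3 CPM in the cortex, and its mean with nitrate had to lie between 0.5 and 2 times its mean with KCl there. The 28007 transcripts that met both conditions were ranked by the log2 ratio of the cortex mean to the highest mean among the root cap, the meristem and the vascular tissue, with 0.5 CPM added to each. The first 150 of that ranking, 0.293% of the table, are called members below. Because these levels chose the members, the differences between the cortex and the other areas are a description and carry no test.

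Per the labels, the libraries came from seedlings of 1 month, grown from seeds of the Segura-Alcaraz provenance. All seedlings spent 3 days on a nutrient solution without nitrogen. They then received 80 mL of 3 mM potassium nitrate or 80 mL of 3 mM KCl, the control, which supplies the same potassium with chloride in place of nitrate. Roots were taken 2 h later, and the 4 areas were cut by laser from frozen sections of 30 µm. The protocol gives them as only approximately the root cap, meristem, developing cortex and developing vessels, so a library can hold cells of a neighbouring area. Every area was sampled with both solutions in 3 numbered experiments, so there are 8 groups of 3 and 24 libraries in all. How many seedlings went into a library, and whether the experiments were grown apart, is not stated. The p-values below therefore speak only of the spread among these 24 libraries, which may be technical.

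The cortex is the ground tissue between the epidermis and the vascular cylinder. Its cells leave the meristem, elongate and differentiate, store starch, and pass water and mineral ions inward to the vascular tissue. In pines it is also the tissue in which ectomycorrhizal fungi form the Hartig net. None of the 51211 IDs is paired with a gene name in the sources used here (0 IDs). The cortex identity of the libraries could therefore not be checked against known marker genes, no function can be given to a member, and no sequence was at hand.

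The reads recovered from the table summed to 45262154 to 51517525 per library, and 3 reads correspond to at most 0.074 CPM. Libraries of the same solution and number deviated together across areas (r of 0.279 to 0.694 over 36 pairs of libraries, across transcripts). They are therefore treated as 1 set, called a root-tip set below, and there are 6 sets. The labels do not say that the libraries of a set share plants or root tips, and what they share was not tested. Some libraries stood apart, as seen in lists of 150 transcripts chosen for the other areas by the same rule. The vascular list summed to 1809 CPM in the vascular KCl library 1, against 4150 to 7941 CPM in the other 5 vascular libraries. In the same library the meristem list summed to 1833 CPM, against 523 to 923 CPM in the other vascular libraries. In the cortex KCl library 1 the meristem list summed to 1675 CPM, against 896 to 1062 CPM in the other 5 cortex libraries. Whether these differences reflect the mix of tissue in a library was not tested, nor was their part in the results below.

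The members spanned a wide range of levels in the cortex, and the typical member was below 1 CPM elsewhere. Their cortex means ran from 3.08 to 1284 CPM with a median of 19.1 CPM, against 10.1 CPM over all ranked transcripts. Of the 150, 25 exceeded 100 CPM and 58 were below 10 CPM. The median member had a mean of 0.728 CPM in the vascular tissue, 0.349 CPM in the meristem and 0.312 CPM in the root cap. Summed over all members, the level was 11419 ± 2400 CPM in the cortex, against 552 ± 334 CPM in the vascular tissue, 998 ± 289 CPM in the meristem and 1121 ± 705 CPM in the cap (SD, n = 6 each, both solutions pooled). The members thus held 1.17% ± 0.232 of the CPM in cortex libraries and 0.0584% ± 0.0354, 0.113% ± 0.0312 and 0.102% ± 0.0672 in vascular, meristem and cap libraries (SD, n = 6 each). In bulk tissue, fewer cells of a type and less RNA per cell cannot be told apart.

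**Figure D1:**
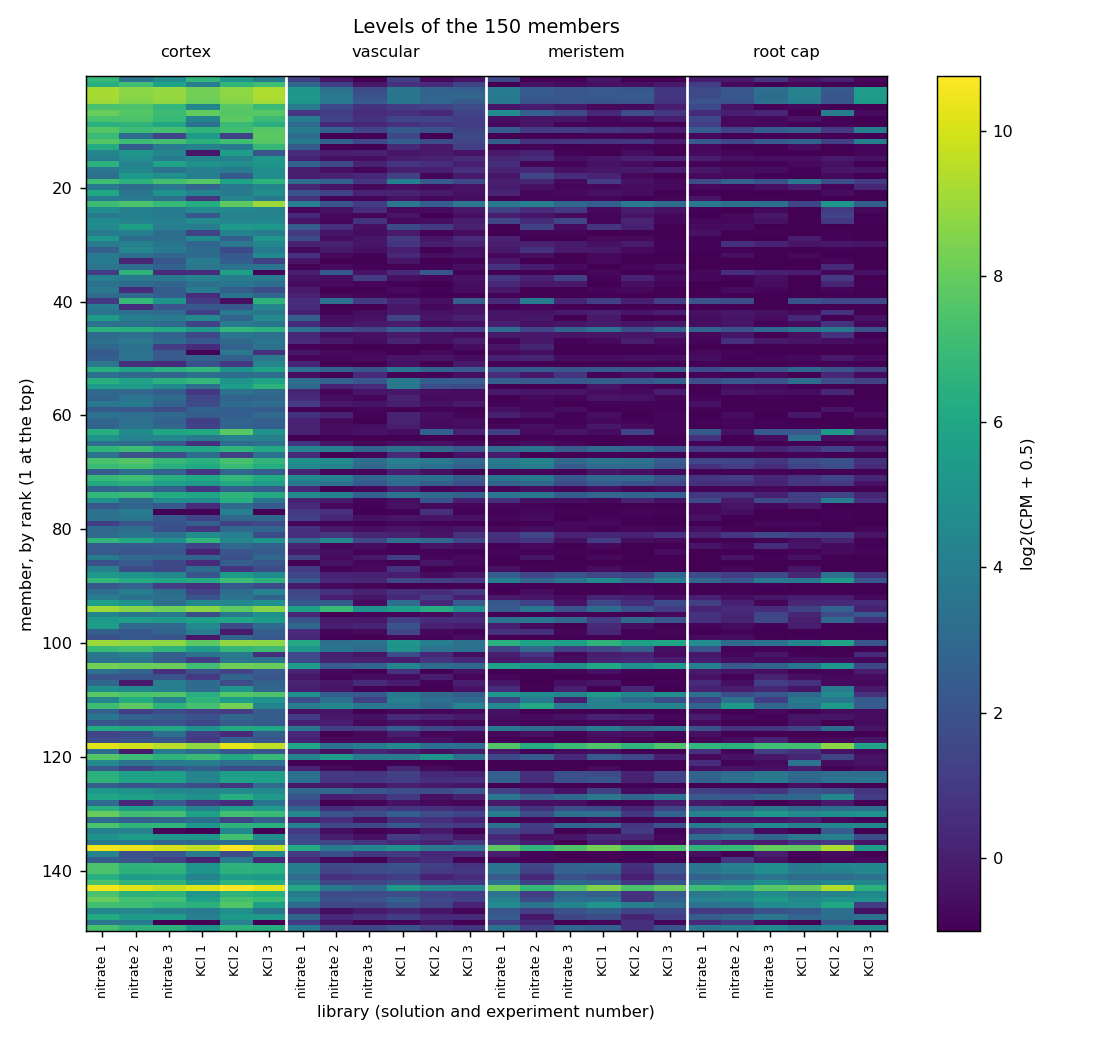
Heat map of the 150 members (rows, by rank) in the 24 libraries (columns, by area, solution and experiment number), coloured by log2(CPM + 0.5). Most rows are brighter in the 6 cortex columns, and many are near the floor in the other 18. The brightest bands outside the cortex belong to abundant members, and single dark cells within the cortex mark members low or missing in that library.

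The ratio of the cortex to the next-highest area was steep for a few members and moderate for most. On the log2 scale it ran from 5.39 for the member ranked first to 2.33 for the last, with a median of 2.81. It reached 16-fold in 21 members and 8-fold in 68. For 118 members the lowest of the 6 cortex libraries lay above the highest of the other 18 libraries. The same held for 1.2% of all 51211 transcripts, and since the ranking used this contrast nothing is read from the difference. Of the 32 members with overlapping libraries, 12 had their lowest cortex level in the KCl library 1, and 11 had their highest level outside the cortex in the vascular nitrate library 1.

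The name "restricted" fitted only some of them. A level of 1 CPM in at least 3 of the 6 libraries of another area was reached by 69 members, and 41 members reached it in all 3 other areas. The 81 members that reached it in no other area had a median cortex mean of 7.00 CPM, against 97.4 CPM for the 41 that reached it in all. The members present in every area were thus mostly the abundant ones. The ranking by a ratio largely fixes this, since a member with a low cortex mean can only have low means elsewhere. Nothing is read from it. A few members had no read at all in an area: 1 in the vascular tissue, 2 in the meristem and 4 in the cap. The largest fold among these was that of the member ranked 64, with 19.9 ± 7.00 CPM in the cortex (SD, n = 6) and 0 reads in the vascular tissue, at least 340-fold higher in the cortex when set against 3 reads per vascular library. In the cap the same member had 10.02 CPM in the KCl library 1 and at most 1.16 CPM in the other 5 libraries. The member ranked 86 had no read in either the meristem or the cap and 3.43 ± 1.61 CPM in the cortex (SD, n = 6).

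The member ranked first, pp_72909, had 113, 10.9 and 26.5 CPM in the nitrate cortex libraries 1, 2 and 3 and 105, 34.8 and 15.4 CPM in the KCl cortex libraries. Both cortex libraries numbered 1 were far above the other 4. Outside the cortex it reached at most 2.37 CPM, in the meristem nitrate library 1, and its next-highest levels there were 1.88 and 1.73 CPM, in the 2 vascular libraries numbered 1. In the vascular tissue and the meristem the highest libraries thus carried the same number as in the cortex. In the cap the highest was the nitrate library 3 with 1.18 CPM, against 0.404 and 0.296 CPM in the cap libraries numbered 1.

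The second member, pp_161300, had 78.7, 139.5 and 53.2 CPM in the nitrate cortex libraries and 14.8, 103 and 139 CPM in the KCl ones. Its KCl library 1 was the lowest of the 6, and the solutions overlapped. In the vascular tissue it had 6.83, 1.76 and 0.324 CPM with nitrate and 1.10, 0.844 and 2.08 CPM with KCl. It reached at most 0.359 CPM in the 6 meristem libraries. In the cap it had 1.66 CPM in the nitrate library 1 and at most 0.116 CPM in the other 5 libraries.

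Both members with the highest cortex means were also present in every other area. The transcript pp_164364 (rank 143) had 1512, 1177 and 897 CPM in nitrate cortex libraries and 1169, 1668 and 1278 CPM in KCl cortex libraries. Its means elsewhere were 29.4 ± 22.3 CPM in the vascular tissue, 232 ± 95.0 CPM in the meristem and 249 ± 218 CPM in the cap (SD, n = 6 each). The lowest cortex library was still above the highest other library, the cap KCl library 2 with 671 CPM. The transcript pp_134827 (rank 136) had a similar profile, with 1212 ± 358 CPM in the cortex and 27.3 ± 24.1, 189 ± 66.7 and 228 ± 208 CPM in the vascular tissue, meristem and cap (SD, n = 6 each). It too had its highest level outside the cortex in the cap KCl library 2, at 621 CPM. The 10 most abundant members held 52.6% of the summed cortex level, so sums over the members mostly reflect these few.

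**Figure D2:**
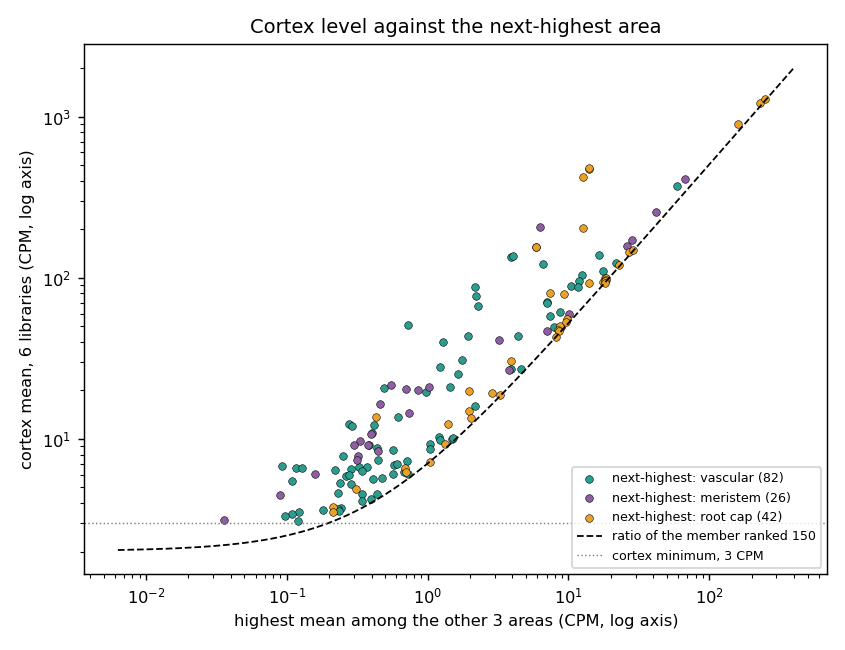
Cortex mean of each member against the highest mean among the other 3 areas, both in CPM on log axes, coloured by which area came next. The dashed line is the ratio of the member ranked 150; members with under 1 CPM elsewhere lie at the left, and the members with the highest cortex means lie close to the line.

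The area with the next-highest level split the members unevenly. It was the vascular tissue for 82 members, the cap for 42 and the meristem for 26. The vascular share was 54.7% of the members, against 23.4% of the transcripts ranked after them down to rank 1000. The cap share was 28.0% against 47.1%. Over all 4575 ranked transcripts that were highest in the cortex, the shares were 40.5% vascular, 30.4% cap and 29.0% meristem. Beside this wider set the cap share of the members was near, the vascular share higher and the meristem share, at 17.3%, lower. With both vascular libraries numbered 1 left out and the ranking repeated, the vascular tissue came next for 65 members, the cap for 43 and the meristem for 42. With a cortex minimum of 10 CPM in place of 3 the order turned, and the cap came next for 60, the vascular tissue for 53 and the meristem for 37.

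Members often came from neighbouring ID numbers. Of the 216 listed IDs that directly precede or follow a member, 108 were themselves members. Grouping IDs no more than 10 apart gave 70 blocks, of which 30 held 2 or more members and 110 members in all, while 40 members stood alone. This was not particular to the cortex. The lists of 150 chosen by the same rule fell into 71 blocks for the cap, 78 for the meristem and 86 for the vascular tissue. The sources do not say whether neighbouring IDs are isoforms, gene copies or assembled fragments, and reads of near-identical sequences can be split among them, so 150 members are not 150 independent genes. Within most blocks, members varied together over the 6 cortex libraries. The median Pearson r was 0.993 over 236 pairs, to which large blocks give the most, against 0.219 over 10939 pairs from different blocks. Not every block held to this. In the block of 2 with the member ranked first, pp_72909, r was -0.449, and in the block of the members ranked 25 and 134 it was 0.175. These are descriptions across 6 libraries shared by all pairs. In 27 of the 30 blocks the same area came next for every member.

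The longest run of consecutive IDs held 8 members, from pp_112453 to pp_112460, ranked 7 to 59. Their summed level was 366, 274 and 197 CPM in nitrate cortex libraries and 348, 291 and 292 CPM in KCl cortex libraries. These 8 were also among the steadiest members: pp_112460 had 14.6 ± 2.13 CPM in the cortex (SD, n = 6), the second-lowest relative spread of all members. The next area was the meristem for all 8. There the run summed to 33.2, 9.17 and 10.2 CPM with nitrate and 1.04, 4.98 and 2.16 CPM with KCl. The solutions did not overlap in the sum. Groups of 3 libraries can stand apart by chance, and 10 members of the whole list did so in the meristem. Nothing is therefore read from the lack of overlap, in this sum or in the single member given below. No member of the run was called for nitrate in the meristem, where the smallest p of all members by limma was that of the member ranked 26, which belongs to this run. This member was below 1 CPM in 4 of the 6 meristem libraries and entered the test through its cortex level. It had 2.24, 0.941 and 2.21 CPM with nitrate and 0.0742, 0.6253 and 0.0898 CPM with KCl, with no overlap between the solutions, and a change of 1.60 ± 0.434 on the log2 scale (SE), with an adjusted p that was 0.553 in limma and 1 in edgeR.

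The largest block held 13 members, ranked 123 to 150, with a median r of 0.998 across the cortex libraries. Its sum was 1957, 1115 and 1147 CPM in nitrate cortex libraries, against 397, 1114 and 969 CPM in KCl cortex libraries. The KCl library 1 stood lowest and the nitrate library 1 highest. The cap came next for all 13, with sums of 137 to 297 CPM. The block of pp_161300 held 7 members ranked 2 to 39 and summed to 535, 630 and 360 CPM with nitrate and 68.5, 701 and 511 CPM with KCl in the cortex. Another block of 7, ranked 3 to 114, summed to 2152, 1458 and 1706 CPM with nitrate and 1066, 1555 and 2275 CPM with KCl. In each of these 3 blocks the cortex KCl library 1 was the lowest of the 6.

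Levels of the members varied widely between the cortex libraries. The coefficient of variation over the 6 cortex libraries (SD as a percent of the mean) had a median of 44.8% over the members and 15.8% over all 28007 ranked transcripts, whose median level was 10.1 CPM. It exceeded 100% in 11 members (7.33%) and in 0.343% of all ranked transcripts. The lists chosen by the same rule for the other areas also varied widely in their own area, with medians of 54.6% for the vascular tissue, 30.9% for the meristem and 46.6% for the cap. Lists of this kind varied more than the transcripts ranked with them in all 4 areas, whose medians were 15.8% in the cortex, 18.2% in the vascular tissue, 17.9% in the meristem and 24.9% in the cap.

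The KCl library 1 stood apart in the cortex. It was the lowest of the 6 cortex libraries for 85 members (56.7%), and for 21.5% of all ranked transcripts. Its median deviation from the cortex mean was -0.64 on the log2 scale, against -0.06 to 0.42 in the other 5 libraries. The summed level was 14580.5, 11759 and 9775 CPM in nitrate libraries, against 7773, 13054 and 11575 CPM in KCl libraries. With each ID block counted as 1, the deviation of the KCl library 1 was -0.59. As given above, the same library held the highest level of the meristem list among the cortex libraries.

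The 11 members that varied most fell into 8 ID blocks. Some of them were high in the same root-tip sets in more than 1 area, and the members given next were picked for that after their values were seen. The member ranked 149 had 12.2, 13.2 and 0 CPM in the nitrate cortex libraries 1, 2 and 3, and 0, 17.99 and 0 CPM in the KCl ones. It was present in the nitrate sets 1 and 2 and the KCl set 2, and had no read in the other 3 cortex libraries. In the meristem it had 1.72, 0.787 and 0 CPM with nitrate and 0.0742, 1.05 and 0.0719 CPM with KCl. The same 3 sets were thus the high ones there. They were also the high ones in the cap, with 0.808, 1.49 and 0.139 CPM with nitrate and 0, 3.74 and 0.0473 CPM with KCl. The member ranked 77 had the same 3 high sets in the cortex, with 10.2, 14.4 and 0.0185 CPM with nitrate and 0.0211, 16.8 and 0 CPM with KCl. A level of at most 3 reads in at least 1 cortex library was found for 5 members (3.33%) and for 0.239% of all ranked transcripts.

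Other sets were high for other members. The member ranked 11 had 127.5, 8.45 and 2.28 CPM in nitrate cortex libraries and 39.0, 2.13 and 223 CPM in KCl ones. In the vascular tissue it had 8.56, 0 and 0.0381 CPM with nitrate and 2.38, 0 and 2.64 CPM with KCl. The 3 sets with the highest cortex levels were also the 3 highest in the vascular tissue. The member ranked 35 was instead highest in the sets numbered 2, with 97.8 CPM in the nitrate and 51.4 CPM in the KCl cortex library, and at most 1.60 CPM in the other 4. For such members the cortex means rest on 2 or 3 of the 6 sets. The member ranked 40 did not keep 1 pattern across areas: in the cortex it had 1.41, 114 and 33.4 CPM with nitrate and 1.63, 0.207 and 95.5 CPM with KCl, against 3.54, 2.89 and 0 CPM with nitrate and 3.41, 2.35 and 2.32 CPM with KCl in the cap. Members did not, in general, follow their set across areas more closely than other transcripts. Over the 6 sets, the median r between cortex and vascular levels was 0.34 for the 61 members at 1 CPM in 3 vascular libraries, against 0.39 for all such transcripts with at least 3 CPM in the cortex. For the meristem it was 0.09 for 51 members against 0.41, and for the cap 0.28 for 51 members against 0.31.

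**Figure D3:**
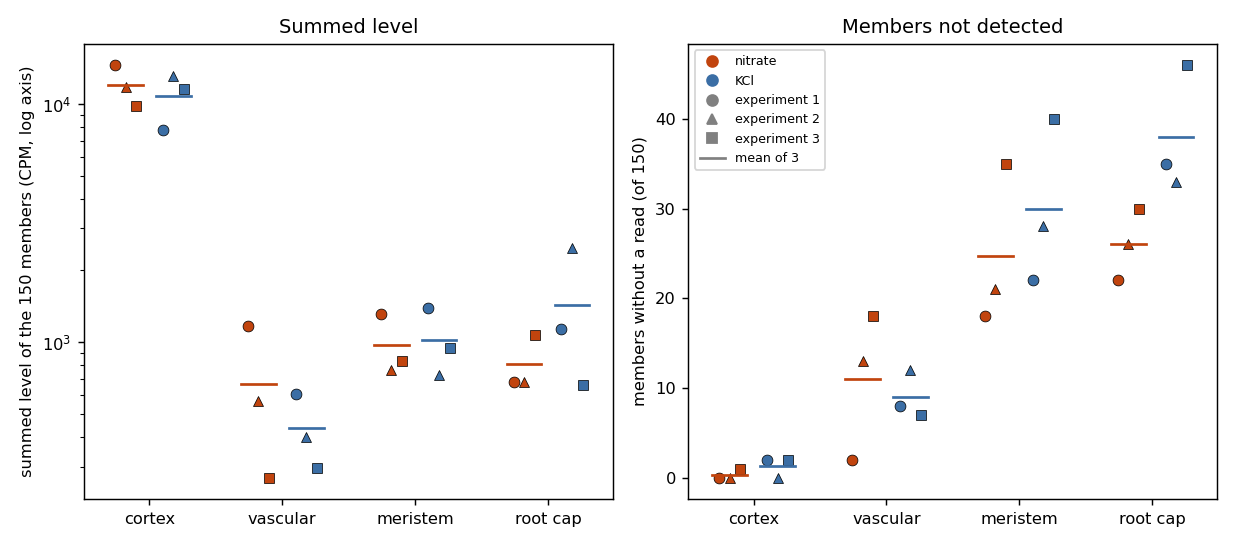
Left, summed level of the 150 members in each library (CPM, log axis); right, number of the 150 without a read. Points are libraries, coloured by solution and shaped by experiment number, and lines are means of 3; cortex libraries lack 0 to 2 members, while cap libraries lack 22 to 46.

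Outside the cortex, detection was widest in the vascular tissue. Cortex libraries had 0 to 2 members without a read, vascular libraries 2 to 18, meristem libraries 18 to 40 and cap libraries 22 to 46. The summed level followed another order, because abundant members such as pp_164364 and pp_134827 were higher in the meristem and the cap than in the vascular tissue. In the cap, the sum was 681, 678 and 1077 CPM with nitrate, against 1132, 2494 and 665 CPM with KCl. The KCl library 2 stood far above the other 5 cap libraries.

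The vascular nitrate library 1 held more of the members than any other vascular library. It was the highest of the 6 vascular libraries for 105 members (70.0%), and for 14.9% of all ranked transcripts. Its sum was 1173 CPM, against 564 and 269 CPM in the other nitrate libraries and 609, 399 and 298 CPM in the KCl libraries. Set against the cortex library of the same solution and number, the median member reached 8.71% of its cortex level in the vascular nitrate library 1, and 2.06% and 2.34% in the nitrate libraries 2 and 3. With KCl the medians were 10.5%, 2.09% and 1.93%. The vascular libraries numbered 1 were thus the high ones with both solutions. Within each solution the library numbered 1 was also the highest in the meristem and the cap. The meristem medians were 3.19%, 2.05% and 1.10% with nitrate and 3.36%, 1.37% and 0.809% with KCl. In the cap they were 1.94%, 1.25% and 1.71% with nitrate and 3.54%, 2.31% and 0.950% with KCl. The KCl ratios numbered 1 also have the low cortex KCl library 1 below the line. In the vascular nitrate library 1 the middle 50% of members spanned 5.77% to 13.2% of the cortex level, so the members did not share 1 ratio. The vascular list, in turn, summed to 4150 CPM in the vascular nitrate library 1, lower than in 4 of the other 5 vascular libraries, and the part of tissue mix in these levels was not tested.

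**Figure D4:**
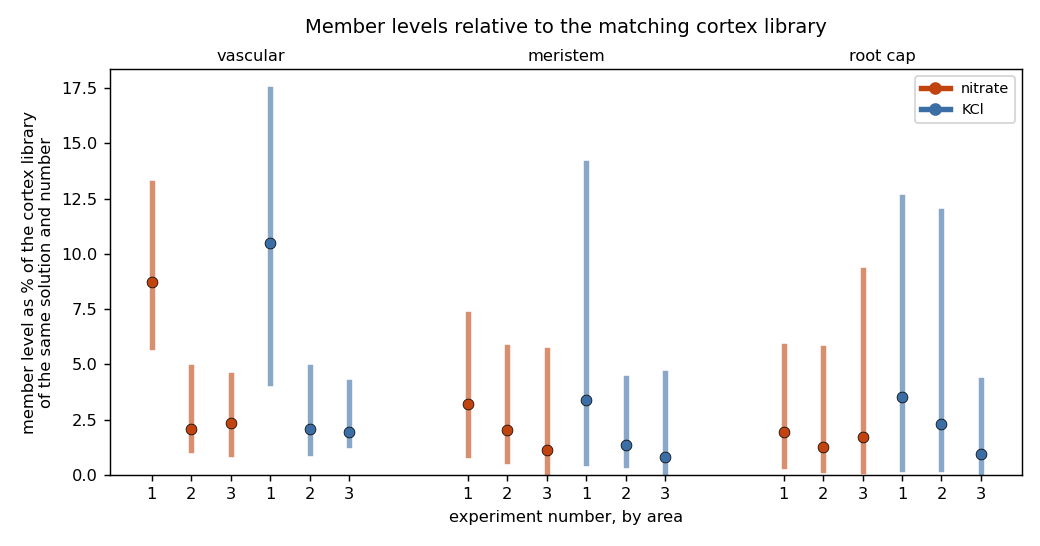
Level of the members in each vascular, meristem and cap library as a percent of the cortex library with the same solution and experiment number; points are medians over members, bars span the middle 50%, and colours mark the solution. Both vascular libraries numbered 1 lie at 8.71% and 10.5%, against 1.93% to 2.34% in the other 4. Within each solution the library numbered 1 is also the highest in the meristem and the cap.

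The comparison of solutions asked whether nitrate changed these transcripts within 2 h. The rule had already limited the cortex change of the means to 0.5 to 2, so only the other areas give information that the choice did not fix. A transcript was called at an adjusted p below 0.05 by limma, a linear model on log2(CPM + 0.5) fitted to all 24 libraries and 51044 transcripts. The model had no term for the root-tip set and took the libraries of a set as independent. All 150 members passed its filter on low values, which their cortex libraries alone can satisfy. None of the 150 members was called: 0 in the vascular tissue, 0 in the meristem and 0 in the cap. Over all transcripts tested, the shares called higher and lower were 0.38% and 0.0353% in the vascular tissue, 0.0372% and 0.0411% in the meristem, and 0.694% and 0.214% in the cap. A count of 0 among 150 is near these shares, so it is not a result about the members. The edgeR test on the recovered reads also called 0 members in each area. Its shares over all transcripts were 0.125% and 0.0274% in the vascular tissue, 0.0157% and 0.0176% in the meristem, and 0.0744% and 0.157% in the cap.

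At an unadjusted p below 0.05, limma had 1 member higher and 0 lower in the vascular tissue, 7 and 0 in the meristem, and 0 and 2 in the cap. Over all transcripts the limma shares were 8.02% and 2.53%, 2.13% and 2.32%, and 5.51% and 4.53% in the same order. All 7 in the meristem were of the run from pp_112453 to pp_112460. Of these, only the member ranked 7 reached 1 CPM in 3 meristem libraries. The 2 in the cap were of 1 ID block, so these counts are not of independent members. The members' counts by edgeR were 12 and 1, 11 and 0, and 6 and 13, beside 6.66% and 2.29%, 2.09% and 2.68%, and 4.03% and 6.80% of all transcripts. The smallest adjusted p over the members by limma was 0.301 in the vascular tissue, 0.553 in the meristem and 0.461 in the cap. The vascular and meristem values came from members that passed the filter through other areas. A level of 1 CPM in at least 3 of the 6 libraries of the area was reached by 61 members in the vascular tissue, 51 in the meristem and 51 in the cap. Among these, too, 0 were called in each area, and the smallest adjusted p by limma was 0.518, 1 and 0.461. These results do not show that nitrate left the members unaltered.

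In the vascular tissue and the cap, the sign of the members' median change turned when 1 library was left out, while in the meristem it stayed positive. The median nitrate change was 0.25 in the vascular tissue, 0.15 in the meristem and -0.06 in the cap on the log2 scale, beside 0.02, -0.01 and -0.01 over all transcripts tested. By edgeR the members' medians were larger in size, at 0.75, 0.65 and -0.21 in the same order. Over the 61, 51 and 51 members that reached 1 CPM in 3 libraries of the area, the limma medians were 0.65, 0.53 and -0.17. These are descriptions and support nothing, since that filter picks members by their level in the area. In the vascular tissue 104 members (and 53.0% of all transcripts) had a positive change, but without the nitrate library 1 the median was -0.09. With both vascular libraries numbered 1 left out it was -0.01, and 0 members were called. In the meristem 101 members (and 47.6% of all transcripts) had a positive change, with medians of 0.04 to 0.27 when each meristem library was left out in turn. In the cap, where 60 members (and 48.7% of all transcripts) had a positive change, the member with the smallest p by limma was that ranked 3, with 2.47, 3.87 and 9.35 CPM with nitrate and 18.6, 4.58 and 44.7 CPM with KCl (log2 change of -1.70 ± 0.773, SE, adjusted p = 0.461 by limma and 0.341 by edgeR). Its solutions overlapped, and without the cap KCl library 2 the median over all members was 0.05.

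**Figure D5:**
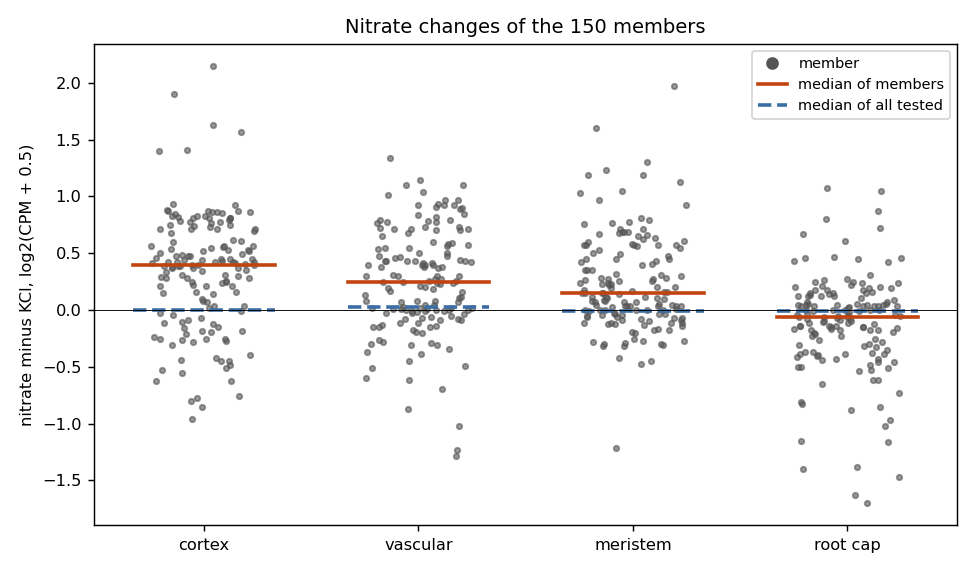
Nitrate minus KCl on the log2(CPM + 0.5) scale for each of the 150 members in the 4 areas (points), with the median of the members (solid line) and of all 51044 transcripts tested (dashed line). In the cortex the rule bounds the ratio of means; medians of the members there, in the vascular tissue, the meristem and the cap were 0.40, 0.25, 0.15 and -0.06, and 0 points were called in any area.

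In the cortex itself, the ratio of the nitrate mean to the KCl mean had a median of 1.15 over the members, and was above 1 for 105 of them. Over all ranked transcripts the median was 0.988. The fitted change had a median of 0.40 on the log2 scale, beside 0.00 for all tested, and it was 0.05 without the KCl library 1. By limma and by edgeR 0 members were called in the cortex, where limma called 0.161% of all transcripts higher and 0.047% lower, and edgeR 0.0764% and 0.0235%. At an unadjusted p below 0.05 limma had 7 members higher and 0 lower, beside 3.08% and 1.92% of all transcripts, and edgeR had 0 and 0, beside 2.61% and 2.12%. Nothing is read from these counts, since the rule used this contrast.

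The edges of the rule lay within a continuous range. The member ranked 150 had 93.4 ± 41.3 CPM in the cortex and 18.2 ± 5.26 CPM in the cap, and the first transcript left out had 114 ± 28.2 CPM in the cortex and 22.3 ± 9.89 CPM in the cap (SD, n = 6 each). Their log2 ratios were 2.33 and 2.33, equal to 2 decimals. The limits on the nitrate ratio left out 28 transcripts whose cortex ratio would have placed them among the members. In 22 of these the mean with nitrate was above 2 times the KCl mean, the nearest at 2.03 and the farthest at 29.2. In the other 6 it was below 0.5, the nearest at 0.489. Members themselves had nitrate ratios from 0.517 to 1.92.

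Choice of members on part of the libraries gave values in libraries that had no role in it. When the ranking was repeated without experiment 1, 126 of its first 150 transcripts had both cortex libraries of experiment 1 above all 6 other libraries of that experiment, beside 6.06% of all transcripts with at least 3 CPM in the cortex. The counts were 143 without experiment 2 and 143 without experiment 3, beside 7.44% and 7.56%. Ranking on the nitrate libraries alone gave the lowest count, with 103 of 150 having all 3 KCl cortex libraries above the other 9 KCl libraries, beside 3.72% of all transcripts, and 5 at or below a log2 ratio of 0. Ranking on the KCl libraries alone gave 133 in the nitrate libraries, beside 5.35%, and 1 at or below 0. The median log2 ratio in the libraries left out was 2.29, 2.85 and 2.88 for experiments 1, 2 and 3, against 3.05, 2.71 and 2.61 in the libraries used. Among transcripts ranked without experiment 1, 2 had no higher mean in the cortex than in every other area of that experiment. The count was 0 for experiment 2 and 4 for experiment 3. These re-rankings shared 111, 113 and 115 transcripts with the members.

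The cortex list was intermediate in how far it stood apart. The same rule gave a log2 ratio at rank 150 of 4.92 for the root cap, 3.36 for the vascular tissue and 1.14 for the meristem, beside 2.33 for the cortex. All 6 libraries of the own area were above the other 18 for 118 of the cortex members, 142 of the cap list, 142 of the vascular list and 89 of the meristem list. These values were used to choose each list and are given without a test.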

How the data were processed

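The deposited table holds 51211 transcripts in 24 libraries as signal values named CPM by the authors, which are read counts scaled per library. Reads were handled with bcl2fastq and BWA, per the submitters' processing notes. How reads were counted and scaled, and on which reference, is not stated there. The column totals of the deposited signal ran from 786966 to 1173829 CPM. All values (100%) were whole multiples of 1 read within 0.02 reads, and 1 read was worth 0.0171 to 0.0247 CPM. Every column was mapped to a sample by its library name.

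Nitrate was compared with KCl in each area by limma 3.58.1 in R 4.3.3 on log2(CPM + 0.5), with 8 group means, a variance trend and Benjamini-Hochberg adjustment over the 51044 transcripts that reached 1 CPM in 3 or more libraries. The planned test for plain CPM was kept for this signal. The quasi-likelihood test of edgeR 4.0.16 used the recovered reads. In data simulated with known changes, false calls made up a larger share of the limma calls than of the edgeR calls in each area. For limma that share was above the 0.05 set by the adjustment, so both are given. The simulated counts followed the model of edgeR with the spreads it estimated here, and libraries were drawn independently. The simulation can therefore favour edgeR and does not rank the tools for these data. Fold changes on this log2 scale understate changes of low transcripts. The text names the 2 members ranked first, the 2 with the highest cortex mean and the ends of the longest ID run, and gives others by rank; members called for nitrate would also have been named. The members, lists and tests were chosen with earlier results of these data known, and ID blocks and members singled out by rank were chosen after their values were seen. Alternatives varied the pseudocount, filter, scaling, libraries, ranking and tool. Replicate numbers were not used to pair the 2 solutions in the main fit.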

Additional observations from a re-analysis of the deposited data

Results flagged for a closer look

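For the summed level and the 6 named members, the highest and lowest of the 6 libraries of each area, with both solutions pooled, were compared with the other 5. Of 28 such groups, 10 had a library whose gap to the nearest other, divided by the whole range, exceeded Dixon's critical value for 6 samples at the 95% level. Chance flags about 1 group in 20 where values are normally distributed. The levels compared were untransformed CPM, some of them a few reads, so that rate may not hold here. Each flagged library was the highest of its group. The groups are not independent, and groups of 3 libraries were not tested.

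The cap KCl library 2 was the highest in 5 of them. The summed level there was 2494 CPM, against 665 to 1132 CPM in the other 5 cap libraries (gap of 0.744 of the range). It had 671 CPM of pp_164364 (others 91.7 to 274 CPM, gap 0.685), 621 CPM of pp_134827 (43.8 to 244 CPM, gap 0.653), 0.259 CPM of pp_112453 (0 to 0.0475 CPM, gap 0.817) and 1.40 CPM of pp_112460 (0 to 0.208 CPM, gap 0.852). The vascular nitrate library 1 was the highest for pp_161300, at 6.83 CPM (others 0.324 to 2.08 CPM, gap 0.73), and for pp_134827, at 73.6 CPM (10.5 to 32.4 CPM, gap 0.653). The remaining 3 were 2.37 CPM of pp_72909 in the meristem nitrate library 1 (0 to 0.297 CPM, gap 0.875), 1.66 CPM of pp_161300 in the cap nitrate library 1 (0 to 0.116 CPM, gap 0.93) and 1.56 CPM of pp_112460 in the vascular nitrate library 3 (0.0866 to 0.254 CPM, gap 0.887). No group of cortex libraries was among the 10.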

How the results depend on the processing

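Of 204 values under alternatives, 198 stayed within 1.5 times the reported count or within the spread between libraries. The cause of the other 6 was not tested. This tally is lenient and is no measure of robustness. For the median nitrate change, that spread was 0.519 in the vascular tissue and 0.433 in the cortex. The medians themselves were 0.25 and 0.40, so even a turned sign could count as unchanged. Of the 57 counts of members called for nitrate, 56 were 0 as in the main fit. With a cortex minimum of 10 CPM, 92 of the 150 members were kept and the vascular tissue came next for 53 transcripts of that ranking and the cap for 60, so the most frequent next area turned from vascular to cap. Without both vascular libraries numbered 1, an alternative chosen after seeing the data, the meristem came next for 42 members. With a pseudocount of 0.1 the median nitrate change in the meristem was 0.36. Leaving out 1 library at a time moved the median in the cap over -0.0963 to 0.0486 (0.04859 without the KCl library 2), and the count of members called in the cortex over 0 to 2, with 2 without the KCl library 2. The members called for nitrate in the cap, meristem and vascular tissue were 0 under every alternative run, pseudocount, filter, scaling, edgeR and left-out libraries included. Under the 2 scalings the median change of all transcripts moved by less than 0.1. Counted by ID block, also chosen after seeing the data, the median nitrate changes were 0.38 in the cortex, 0.08 in the vascular tissue, 0.08 in the meristem and -0.01 in the cap. Deviations of KCl and nitrate libraries with the same number correlated at -0.0429 to 0.298 over 12 pairs. Libraries of the same number and solution had reached 0.279 to 0.694, so the main fit did not pair the solutions by number. With the experiment number as a block, 0 members were called in each area, and the calls over all transcripts were 310 in the vascular tissue, 67 in the meristem, 636 in the cap and 153 in the cortex, against 212, 40, 463 and 106 without the block. With limma fitted to the 6 libraries of each area alone, 0 members were called. Calls over all transcripts then fell to 8 in the vascular tissue, 0 in the meristem, 0 in the cap and 33 in the cortex. The shares called over all transcripts thus depend on fitting the areas together. At this depth a level below 0.074 CPM is not resolved.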
